A study of Mus musculus with 72 samples.

Results

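Whole blood of mice killed 7 days after exposure to 1 Gy of neutrons was compared with that of sham-irradiated controls of the same day. The comparison used the 6 mice labelled Neutron_1Gy_day7 and the 6 labelled Control_day7, 12 of the 72 arrays of the series, and each array held the RNA of 1 mouse. Members were chosen by these titles only. All mice were male C57BL/6 animals irradiated at 8 to 10 weeks of age, and blood was drawn by cardiac puncture into a solution that stabilises RNA. The irradiated mice were carried on a rotating wheel around a beryllium target struck by hydrogen and deuterium ions, which gives a broad neutron spectrum. The study states that the beam also delivered gamma rays, at a lower dose rate than the neutrons, so the exposure was not to neutrons alone. The controls went through the same confinement on the wheel with the beam off. Globin RNA was reduced in every sample before labelling with a single dye. For comparison, the 5 mice given 1 Gy of x-rays at day 7 and, for the change with time, the 6 mice given 1 Gy of neutrons and 5 controls of day 1 were used.

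Blood holds short-lived cells that have to be replaced from the bone marrow and lymphoid organs, together with long-lived red cells. B lymphocytes are among the blood cells most sensitive to ionising radiation, T and NK cells less so. Red cells have no nucleus, and the RNA they contribute comes mainly from reticulocytes, the youngest red cells in the circulation, which still carry transcripts of hemoglobin production, membrane assembly and organelle clearance. Reticulocyte output falls when dividing marrow precursors are lost and returns as the marrow recovers.

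The arrays of irradiated mice were dim. Between 40.2 and 50.3% of their spots were well above background (median 45.8%), against 54.3 to 63.9% (median 62.5%) on the control arrays, and the groups did not overlap (exact permutation test, two-sided, p = 0.00216, the smallest that 6 against 6 can give). The median intensity was 9.52 to 16.8 after neutrons and 32.2 to 50.5 in the controls (exact permutation p = 0.00216), whereas the mean log2 intensity of the 7 spike-in probes, RNA added in known amount, was 11.52 to 12.46 and 11.48 to 12.03 (exact permutation p = 0.762). The number of arrays limits the precision of every value below.

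**Figure D1:**
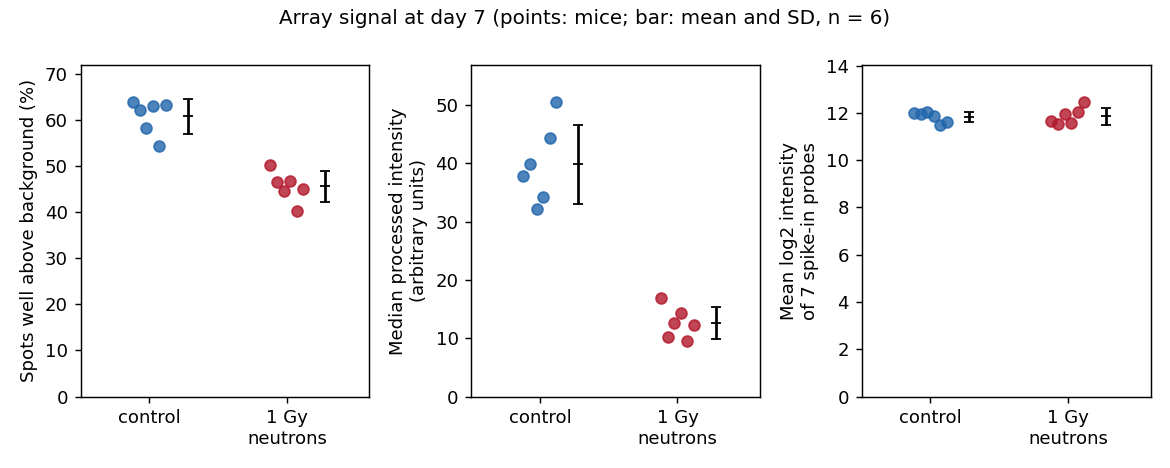
Signal of the 12 arrays of day 7, with 1 point for each mouse (blue, controls, red, 1 Gy neutrons) and the mean and SD beside them (n = 6). Left, percentage of spots well above background, centre, median background-corrected intensity, right, mean log2 intensity of the spike-in probes. The irradiated arrays lay below every control array in the first panels, and the spike-in probes overlapped.

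For this reason each difference depends on what the arrays were scaled to. Levels are given as log2 intensity relative to the median of the detected probes of the same array, and differences as irradiated minus control means on that scale, unless another is named, with the standard error after ±. With this scale 4162 of 10850 genes were differentially expressed (limma, p below 0.001 and false discovery rate below 0.05), 38.4% of those tested, of which 2720 were higher (25.1%) and 1442 lower (13.3%) after neutrons, and the median difference over all genes was 0.31. Quantile normalization gave 2082 higher (19.2%) and 1686 lower genes (15.5%) and a median of 0.12, and centring on all non-control probes 1916 (17.7%) and 1915 (17.6%) with a median of -0.042. With dim spots set to missing, 1730 were higher (17%) and 1929 lower (19%) of 10169, and with normexp background correction 712 (6.56%) and 534 (4.92%) of 10850. Scaling to the spike-in probes lowered the differences by a median of 2.03 and left 90 higher (0.829%) and 5800 lower genes (53.5%), with a median of -1.72. With 6 scalings (the median of detected probes, the median of all non-control probes, their 75th percentile, the median of probes well above background on all 12 arrays, the spike-in probes and quantile normalization), 1363 genes were called lower and 90 higher every time. Without the spike-in scale the numbers were 1363 and 1634. Normexp and missing dim spots are not among the 6. The median difference also varied with brightness, from 0.39 in the dimmest 20% of genes in the controls to 0.0094 in the middle 20% and 0.89 in the brightest 20%.

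**Figure D2:**
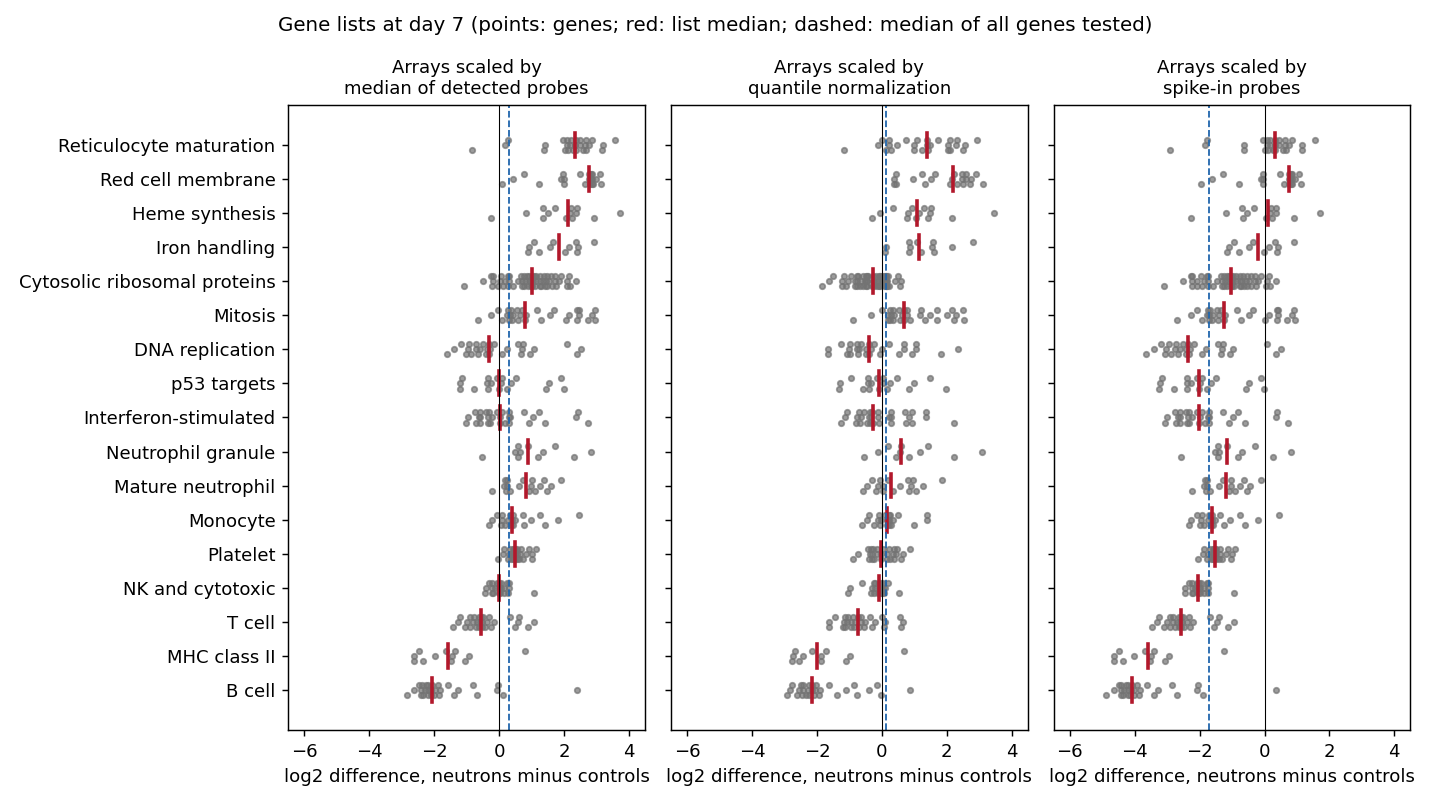
Log2 differences, irradiated minus control, of the genes of 17 lists under 3 array scalings. Points are genes, red bars list medians, and the dashed line the median over all genes tested, which moved from 0.31 to 0.12 and -1.72. The medians of the B cell and MHC class II lists lay left of the dashed line and of 0 in each panel, and those of the red cell membrane, reticulocyte, heme and iron lists right of the dashed line in each panel but between -0.19 and 0.75 on the spike-in scale.

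Only irradiated replicate 1 was scanned on the date of the 6 controls, and no slide held both groups. With scan date as a fixed block, in which only that mouse is set against the controls, 1593 genes were called, 1150 higher and 443 lower. The same mouse had the highest summed level of 25 hepatocyte transcripts on the arrays (9.08 on the log2 scale, against 5.20 to 7.69 in the other irradiated mice and 3.59 to 6.96 in the controls), with 24 of them well above background. Cardiac muscle transcripts, 18 in number, were highest in control replicates 2 and 5 (8.23 and 7.24), with 2.15 to 3.47 in the irradiated mice and 2.11 to 3.42 in the other controls. Among the 11 hepatocyte genes tested none was called with this scale, while Nppa, an atrial hormone, was higher (1.94 ± 0.36, adjusted p = 0.000391, spike-in scale -0.085) and Myl4, an atrial myosin light chain that is also found in erythroid cells, lower (-1.14 ± 0.20, adjusted p = 0.00024). The median of the hepatocyte list was 1.36 and, without irradiated replicate 1, 0.70. Fgb, the fibrinogen beta chain, ranged from -2.19 to 2.92 (median -0.996) after neutrons and -3.18 to -0.69 (median -1.36) in the controls, a difference of 1.17 ± 0.72, adjusted p = 0.18. With scan date as a block 8 of the 11 were called higher. Of the defining markers, Alb, Apoa1, Ttr, Myh6, Tnnt2 and Actc1 did not pass the detection filter. Without irradiated replicate 1, 3850 genes were called, and without control replicates 2 or 5, 4032 and 3934.

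B cell genes were lower after neutrons. Of 31 listed genes 29 were tested, 22 fell and 1 rose, with a median difference of -2.06, and 24 had groups that did not overlap (36.9% of all genes tested). On the spike-in scale 28 were lower with a median of -4.09, and after quantile normalization 24 with -2.15. The share of all genes called lower was 13.3%, and 53.5% and 15.5% on these other scales. Fewer B cells and less RNA per B cell cannot be told apart in bulk blood. The study reports total blood counts within the normal range and no significant change in the make-up of white cells after irradiation. Its text gives no count of B cells. Averaged over its tested genes, the level of the list was 0.90 to 1.21 in the irradiated mice and 2.59 to 2.87 in the controls.

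The antigen receptor on B cells signals through a pair of chains encoded by Cd79a and Cd79b. Cd79a was at 2.17 to 3.24 (median 2.71) in the irradiated mice and 4.95 to 5.82 (median 5.16) in the controls. Every irradiated mouse lay below every control, and the difference was -2.62 ± 0.22, adjusted p = 1.09e-06, a 6.17-fold decrease. For Cd79b the levels were 4.03 to 4.51 (median 4.37) and 6.47 to 6.88 (median 6.73), again without overlap, and the difference was -2.41 ± 0.15, adjusted p = 3.6e-07. Ms4a1, which encodes the surface protein CD20, was at 2.49 to 3.34 (median 3.05) against 4.89 to 5.27 (median 5.18), a difference of -2.19 ± 0.17 (adjusted p = 7.31e-07). Its groups did not overlap either. The largest fall of the list was that of Tnfrsf13c, the receptor for the survival factor BAFF, at 0.015 to 0.86 (median 0.28) against 2.65 to 3.54 (median 3.29), a difference of -2.84 ± 0.20, adjusted p = 5.12e-07. A second, dimmer detected probe for Tnfrsf13c, well above background on 4 of the 6 irradiated arrays, gave 0.68 ± 0.43 (SE).

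The other B cell genes that fell included the follicle-homing receptor Cxcr5 (-2.47), the signalling adaptor Blnk (-2.40), the low-affinity IgE receptor Fcer2a (-2.33), the kinase Blk (-2.29), the coactivator Pou2af1 (-2.19) and the transcription factors Ebf1 (-1.99) and Spib (-1.81). Cd22, an inhibitory B cell receptor, was not called (-0.062 ± 0.15, adjusted p = 0.749), with 1.17 to 1.62 (median 1.57) after neutrons and 1.300 to 1.80 (median 1.53) in the controls, nor were Cr2 (-1.27), Cd180 (-0.81), Btk (-0.68), Lyn (-0.026) and Cd37 (0.13), of which Btk, Lyn and Cd37 are also used by other leukocytes. The member that rose, Cd24a, is also a surface protein of erythroid cells (2.39 ± 0.20, adjusted p = 1.09e-06, with 9.59 to 10.51, median 10.36, against 7.48 to 8.14, median 7.86). Pax5, the factor that maintains B cell identity, did not pass the detection filter.

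Antibody transcripts were among the 10 largest falls, taken from the genes and transcripts called lower under all 6 scalings named above, which do not include normexp. The 10 were Pla2g2d, Srpk3, Stac2, Tnfrsf13c, 5 transcripts listed by Ensembl identifier whose descriptions in the array files name an immunoglobulin light chain or V region, and 1 entry described as unknown. Of the light chain transcripts, ENSMUST00000103366 was well above background on all 6 control arrays (-0.68 to 0.60, median -0.16) but not on any array of an irradiated mouse, which made it at least 5.89-fold lower (adjusted p = 9.45e-07). ENSMUST00000103364 was well above background on 3 irradiated arrays, with -3.38 to -2.35 (median -2.59) against -0.36 to 0.49 (median -0.063), a difference of -2.71 ± 0.20 (adjusted p = 6.09e-07). V region transcripts resemble each other closely and a probe may bind several. A lower bound of this kind sets the control mean against the higher, on each irradiated array, of the spot's own signal and the dimmest signal well above background.

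Pla2g2d, a secreted phospholipase of dendritic cells and macrophages, had the largest fall, from 0.68 to 2.002 (median 1.65) in the controls to -2.57 to -1.46 (median -2.02), a difference of -3.46 ± 0.26, adjusted p = 5.85e-07, which was 11-fold. Srpk3, a protein kinase of SR splicing factors, was at -2.35 to -1.29 (median -1.77) against 1.02 to 1.24 (median 1.18), a difference of -2.94 ± 0.18 (adjusted p = 3.6e-07). Stac2, too, was not well above background on any array of an irradiated mouse, with a bound of at least 1.91-fold lower (adjusted p = 3.93e-07). Lack of overlap between the groups was a condition of their selection, and with normexp Stac2 was at 0.42.

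Genes of antigen presentation by MHC class II, used by B cells, monocytes and dendritic cells, were lower as well. Of 15 listed genes 12 were tested, 10 fell and 1 rose (median -1.57). With the spike-in scale 12 were lower and with quantile normalization 10. Over all genes 13.3% were lower on the scale of detected probes, 53.5% on the spike-in scale and 15.5% after quantile normalization. The classical chains H2-Aa, H2-Ab1 and H2-Eb1 were at 2.43 to 3.06 (median 2.69), 5.85 to 7.37 (median 6.46) and 5.58 to 6.56 (median 5.93) after neutrons. In the controls they were at 3.67 to 4.85 (median 4.48), 7.57 to 8.07 (median 7.87) and 7.68 to 8.15 (median 7.92), and the groups of each gene were separate. The differences were -1.65 ± 0.21, adjusted p = 1.96e-05 for H2-Aa, -1.37 ± 0.22, adjusted p = 0.000159 for H2-Ab1 and -1.98 ± 0.18, adjusted p = 1.57e-06 for H2-Eb1. The peptide loading genes fell too, H2-Ob most (1.65 to 2.15, median 1.96, against 3.94 to 4.96, median 4.66, difference -2.62 ± 0.20, adjusted p = 5.99e-07) and H2-DMa least (0.48 to 1.21, median 0.84, against 1.32 to 2.48, median 1.93, difference -1.05 ± 0.22, adjusted p = 0.000942). Ciita, the coactivator on which class II transcription depends, was at -1.56 to 0.14 (median -0.82) against -0.38 to 0.48 (median 0.15) and missed the threshold (-0.93 ± 0.26, adjusted p = 0.00664). Rfxank, a subunit of the factor that recruits Ciita and a widely expressed gene, was the member that rose (0.79 ± 0.19, adjusted p = 0.0026), with 1.58 to 2.43 (median 1.86) against 0.73 to 1.303 (median 1.26), but was lower on the spike-in scale (-1.24) and below 0 with normexp (-0.15).

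Class II promoters are known for an X box and a Y box bound by RFX and by NF-Y, whose core is CCAAT. The promoters of 3 of the class II genes that fell are shown for this motif, from RefSeq on build GRCm38.p6, each of 300 bases from 250 before to 50 after the annotated start, in the direction of the gene. Capitals mark CCAAT or its reverse complement ATTGG. H2-Aa is at chr17:34287774-34288073, minus strand, H2-Eb1 at chr17:34305617-34305916, plus strand and H2-Ob at chr17:34238655-34238954, plus strand.
H2-Aa: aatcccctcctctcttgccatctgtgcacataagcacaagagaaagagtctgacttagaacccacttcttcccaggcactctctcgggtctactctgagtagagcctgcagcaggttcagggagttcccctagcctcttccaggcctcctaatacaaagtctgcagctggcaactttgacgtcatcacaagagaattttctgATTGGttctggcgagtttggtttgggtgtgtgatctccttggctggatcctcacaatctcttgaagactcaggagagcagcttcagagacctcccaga
H2-Eb1: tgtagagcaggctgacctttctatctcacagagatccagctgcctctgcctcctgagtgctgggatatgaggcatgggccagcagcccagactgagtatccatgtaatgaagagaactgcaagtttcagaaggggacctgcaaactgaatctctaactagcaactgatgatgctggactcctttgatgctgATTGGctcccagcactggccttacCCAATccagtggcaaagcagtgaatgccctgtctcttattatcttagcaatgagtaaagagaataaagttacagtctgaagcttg
H2-Ob: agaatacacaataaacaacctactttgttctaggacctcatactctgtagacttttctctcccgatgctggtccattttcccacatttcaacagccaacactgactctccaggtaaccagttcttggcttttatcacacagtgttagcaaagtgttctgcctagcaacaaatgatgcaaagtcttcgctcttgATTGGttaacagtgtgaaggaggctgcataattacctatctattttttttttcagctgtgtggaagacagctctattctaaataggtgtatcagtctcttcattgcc
The motif CCAAT, on either strand, was present in all 9 of the tested class II genes that have a promoter in the RefSeq table, in 43.3% of the 6640 tested genes with one and in 41.1% of all 27018 genes in the table. A match is a description of these letters and not a bound site.

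Some T cell genes were lower. Of 29 tested, 8 fell and 0 rose, with a median of -0.56, but 15 were lower after quantile normalization (-0.73), 22 with dim spots set to missing and 27 on the spike-in scale (-2.58). The shares of all genes called lower in the same order were 13.3%, 15.5%, 19% and 53.5%. Cd8a, the coreceptor of cytotoxic T cells, fell most (-0.65 to 0.12, median -0.48, against 0.65 to 1.73, median 0.87, difference -1.43 ± 0.21, adjusted p = 8e-05). Ccr7, the homing receptor of naive lymphocytes, was at 3.27 to 4.09 (median 3.77) against 4.72 to 5.16 (median 5.09), a difference of -1.28 ± 0.16 (adjusted p = 1.86e-05), and both genes separated the groups. The receptor chain Cd3d fell (2.55 to 3.11, median 2.81, against 3.31 to 4.33, median 3.71, difference -0.90 ± 0.19, adjusted p = 0.00113), whereas Cd3e (0.48 ± 0.16, adjusted p = 0.0216), Cd4 (0.89 ± 0.70, adjusted p = 0.29) and the T cell factor Tcf7 (-0.52 ± 0.20, adjusted p = 0.0387) were not called and their groups overlapped. Cd4 was at 4.90 to 7.83 (median 7.01) after neutrons and 3.51 to 7.11 (median 6.66) in the controls. Their spike-in differences were -1.54 for Cd3e and -1.13 for Cd4.

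NK and cytotoxic genes showed no call among 22 tested, with a median of -0.0088 below the 0.31 of all genes, and the list's mean level was 1.16 to 1.63 against 1.16 to 1.84. The granule proteins Prf1 (0.16 ± 0.23), Gzma (-0.18 ± 0.22) and Nkg7 (0.29 ± 0.15) and the NK receptor Ncr1 (0.047 ± 0.21) all overlapped between the groups. Scaled to the spike-in probes, 21 of the list were called lower, against 53.5% of all genes.

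**Figure D3:**
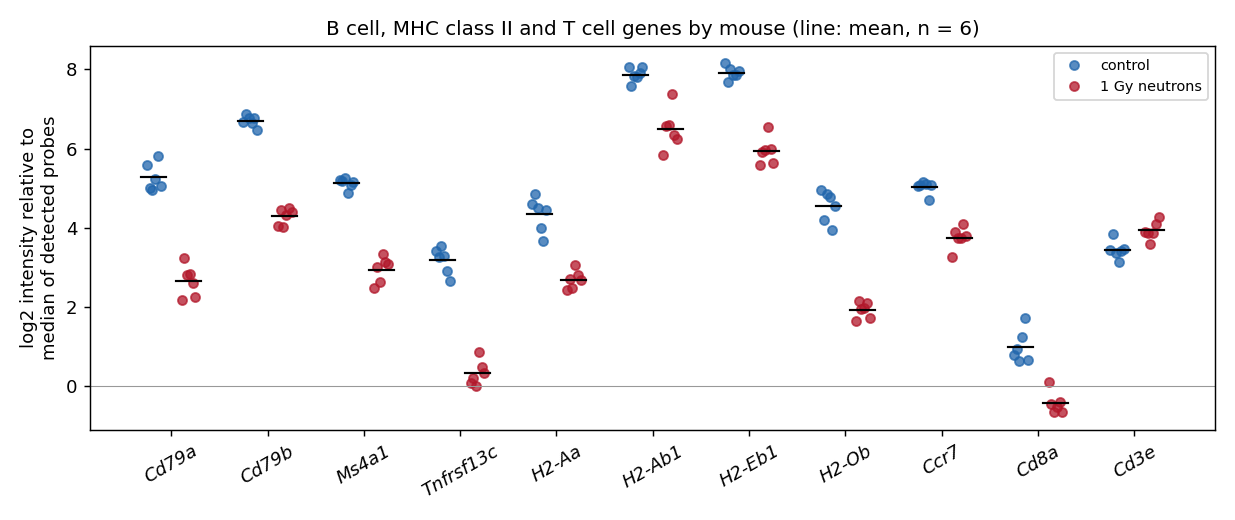
Log2 intensity relative to the median of detected probes, for B cell, MHC class II and T cell genes, with 1 point for each mouse (blue, controls, red, 1 Gy neutrons) and a line at the mean (n = 6). All genes but Cd3e separate the groups, with the irradiated mice lower.

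Transcripts of reticulocytes were higher relative to the rest of the blood RNA. Genes of the red cell membrane rose at 18 of 22 tested, with none lower and a median of 2.78, against 25.1% higher over all genes, and at 17 after quantile normalization. On the spike-in scale the median was 0.75, 0 were higher and 3 lower, so the rise is one relative to other transcripts. Of 27 genes of reticulocyte maturation, the ubiquitin, autophagy and nuclear clearance genes of late red cell precursors, 24 rose and none fell (median 2.35, spike-in scale 0.33 with 3 higher and 1 lower). Heme synthesis genes rose at 12 of 14 (median 2.12, spike-in scale 0.093), and iron handling genes at 9 of 12 (median 1.84, spike-in scale -0.19, none called there). Normexp background correction left 6, 5, 2 and 1 called in these 4 lists, all higher. Without irradiated replicate 1 the counts of higher genes were 18, 24, 12 and 9.

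Slc4a1, the band 3 anion exchanger that is the main membrane protein of red cells, was at 8.42 to 9.88 (median 9.29) in the irradiated mice and 5.67 to 6.72 (median 6.55) in the controls. No irradiated mouse fell within the control range, and the difference was 2.87 ± 0.30, adjusted p = 3.97e-06, or 7.33-fold. Ank1, the ankyrin that ties the membrane skeleton to band 3, was at 2.49 to 3.93 (median 3.41) against -0.31 to 0.92 (median 0.52), a difference of 2.83 ± 0.29 (adjusted p = 3.8e-06). It separated the groups, as did the Rh proteins Rhag (0.39 to 2.05, median 1.57, against -2.04 to -0.995, median -1.40, difference 2.80 ± 0.29, adjusted p = 4.3e-06) and Rhd, the largest rise of the list (4.14 to 6.08, median 5.39, against 1.47 to 2.84, median 2.07, difference 3.15 ± 0.34, adjusted p = 5.92e-06). The members not called were Aqp1, Gypc, Slc14a1 and Sptb, of which Sptb, the erythroid beta spectrin, was at 0.079.

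In heme synthesis, Alas2, the first and rate-limiting enzyme of the erythroid pathway, was at 12.04 to 12.77 (median 12.42) against 9.80 to 10.56 (median 10.24), a difference of 2.18 ± 0.18 (adjusted p = 1.06e-06). Quantile normalization, which gives the brightest probes of all arrays the same values, left a difference of -0.048 for this very bright transcript, and the spike-in scale 0.15. The largest rise was that of Cpox, coproporphyrinogen oxidase, from -0.46 to 0.13 (median -0.12) to 2.59 to 4.20 (median 3.76), or 3.72 ± 0.27, adjusted p = 5.7e-07, and Cpox was also called higher on the spike-in scale (1.70). Slc25a37, the mitochondrial iron importer mitoferrin, was at 11.25 to 12.11 (median 11.91) against 8.32 to 9.24 (median 8.92), a difference of 2.94 ± 0.21 (adjusted p = 5.12e-07). The enzymes Urod (2.39 ± 0.29, adjusted p = 1.28e-05) and Fech, which inserts the iron (2.26 ± 0.20, adjusted p = 1.28e-06), rose without overlap between the groups, and so did Alad (1.498 ± 0.24, adjusted p = 0.000142, spike-in scale -0.53), where irradiated replicate 4 at -0.23 lay just above control replicate 2 at -0.24. Among the iron genes Tfrc, the transferrin receptor, rose most (0.91 to 2.87, median 2.43, against -1.34 to -0.27, median -0.73, difference 2.94 ± 0.31, adjusted p = 4.63e-06), and the iron exporter Slc40a1 was not called (0.93 ± 0.29, adjusted p = 0.015). Globin transcripts, depleted from the RNA before labelling, are given as values only. Hba-a1 differed by 2.08 ± 0.18 and Hbb-b1 by 2.495 ± 0.31, and after quantile normalization by 0.053 and 1.03. Their near-identical copies may share probes.

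Of the clearance genes Wdr26, a subunit of the ubiquitin ligase of erythroid nuclear condensation, was at 6.34 to 8.07 (median 7.58) against 2.99 to 4.18 (median 3.895), a difference of 3.58 ± 0.31, adjusted p = 1.22e-06, or 11.9-fold. Yod1, a deubiquitinase, was at 2.88 to 4.005 (median 3.64) against -0.15 to 0.66 (median 0.34), a difference of 3.19 ± 0.24 (adjusted p = 5.95e-07). Each of them was called higher on the spike-in scale too (1.55 and 1.17). The mitophagy receptor Bnip3l, which clears mitochondria from reticulocytes (2.203 ± 0.26, adjusted p = 1.14e-05), the ubiquitin ligase Trim58 (2.28 ± 0.31, adjusted p = 3.04e-05), the exportin Xpo7 (2.19 ± 0.23, adjusted p = 3.8e-06) and Bpgm, which makes the hemoglobin effector bisphosphoglycerate (2.48 ± 0.21, adjusted p = 1.2e-06), rose without overlap between the groups. Ulk1 (-0.85), Alox15 (0.19) and Map1lc3b (0.26) were not called.

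Transcription factors of the erythroid lineage did not move as one. Of 14 tested, 5 rose and 1 fell, against 25.1% and 13.3% of all genes. Klf1, which activates the adult globin and membrane genes, was at -1.08 to 0.14 (median -0.11) against -3.58 to -2.82 (median -3.11), a difference of 2.85 ± 0.23 (adjusted p = 8.63e-07), and Gata1, the lineage's master regulator, at 3.900 to 4.84 (median 4.57) against 2.01 to 3.06 (median 2.62), a difference of 1.84 ± 0.25 (adjusted p = 3.76e-05). Both separated the groups on this scale, and on the spike-in scale the differences were 0.83 and -0.18, neither called. E2f2, an E2F factor that acts in the last divisions of erythroblasts, was at 8.45 to 9.56 (median 9.22) against 5.49 to 6.19 (median 6.09), a difference of 3.07 ± 0.23, adjusted p = 5.7e-07, and was called higher on the spike-in scale as well (1.05). The study had picked E2f2 for its change on samples of this series. Gata2, a factor of early progenitors, and the erythropoietin receptor Epor were not called (0.42 ± 0.24, adjusted p = 0.159, and 0.97 ± 0.29, adjusted p = 0.00996). Bcl11a, which silences fetal globin and is also a B cell factor, fell (0.027 to 0.84, median 0.52, against 2.17 to 2.73, median 2.41, difference -1.98 ± 0.17, adjusted p = 1.12e-06).

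Erythroid promoters often hold GATA motifs, here AGATAA, and CACCC, the core of KLF sites. The promoters of Alas2 (chrX:150547167-150547466, plus strand) and Rhd (chr4:134864286-134864585, plus strand) from the same RefSeq table are shown with both motifs and their reverse complements in capitals.
Alas2: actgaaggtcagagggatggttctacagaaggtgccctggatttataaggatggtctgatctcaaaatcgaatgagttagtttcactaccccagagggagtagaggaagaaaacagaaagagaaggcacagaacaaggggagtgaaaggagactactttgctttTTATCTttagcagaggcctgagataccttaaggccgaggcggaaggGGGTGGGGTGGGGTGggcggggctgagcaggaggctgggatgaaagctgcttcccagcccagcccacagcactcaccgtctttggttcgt
Rhd: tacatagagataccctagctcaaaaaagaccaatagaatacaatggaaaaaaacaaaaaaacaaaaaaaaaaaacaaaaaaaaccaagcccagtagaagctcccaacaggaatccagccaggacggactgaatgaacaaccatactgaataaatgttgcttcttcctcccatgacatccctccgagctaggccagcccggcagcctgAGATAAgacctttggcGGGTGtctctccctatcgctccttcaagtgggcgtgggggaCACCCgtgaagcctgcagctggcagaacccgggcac
AGATAA, on either strand, was present in 5 of 14 tested red cell membrane genes with a promoter (35.7%) and in 2 of 9 heme synthesis genes (22.2%), against 9.76% of all tested genes with one. CACCC was present in 12 of 14 (85.7%) and 7 of 9 (77.8%), against 67.5%.

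**Figure D4:**
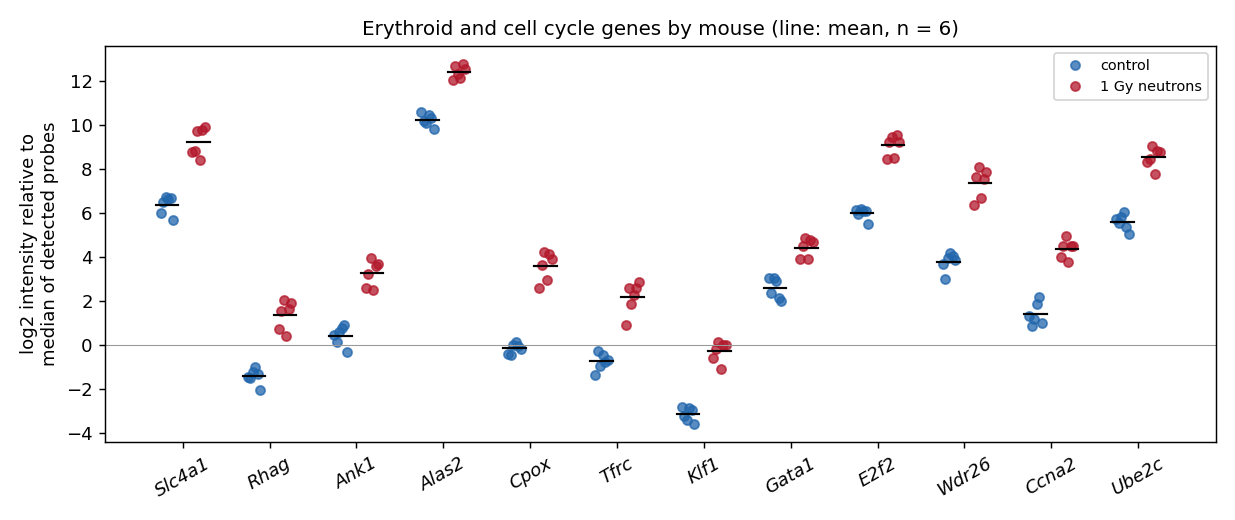
Log2 intensity relative to the median of detected probes, for erythroid and cell cycle genes, with 1 point for each mouse (blue, controls, red, 1 Gy neutrons) and a line at the mean (n = 6). Every gene separates the groups with the irradiated mice higher. E2f2, Wdr26, Ccna2 and Ube2c are among the genes that the study named from samples of this series. On the spike-in scale the differences of these genes lie between -0.18 (Gata1) and 1.70 (Cpox).

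Part of the genes of mitosis were higher. Of 42 listed, 31 were tested, 15 rose and 1 fell (median 0.78), against 25.1% and 13.3% of all genes. On the spike-in scale 1 was higher and 10 were lower, against 0.829% and 53.5% of all genes. Ccna2, the cyclin of S phase and G2, was at 3.76 to 4.95 (median 4.47) against 0.87 to 2.19 (median 1.24), a difference of 2.95 ± 0.26, adjusted p = 1.5e-06. Ube2c, the ubiquitin-conjugating enzyme of the anaphase-promoting complex, was at 7.76 to 9.02 (median 8.61) against 5.03 to 6.02 (median 5.62), a difference of 2.94 ± 0.23 (adjusted p = 8.28e-07) and was the member called higher on the spike-in scale (0.92). Fzr1, an activator of the same complex that is also used in cells leaving the cycle, was at 4.65 to 6.11 (median 5.63) against 2.42 to 3.16 (median 2.73), a difference of 2.73 ± 0.24 (adjusted p = 1.51e-06). The groups of all 3 were separate, as were those of the phosphatase Cdc25b (2.45 ± 0.24, adjusted p = 2.43e-06), the spindle protein Nusap1 (2.41 ± 0.25, adjusted p = 4.66e-06) and the proliferation marker Mki67 (2.45 ± 0.30, adjusted p = 1.43e-05). All of these but Mki67 were picked by the study for their change on samples of this series, so their rise is not independent evidence. The kinases and regulators Aurka (-0.24), Plk1 (0.70), Cdk1 (0.64), Ccnb1 (0.42), Bub1b (0.10) and Cdc20 (0.25) were not called, and the condensin subunit Smc4 fell (-0.66 ± 0.15, adjusted p = 0.00159). The Ube2c promoter (chr2:164769679-164769978, plus strand), with CCAAT and ATTGG in capitals, is shown for its repeats of this motif.
Ube2c: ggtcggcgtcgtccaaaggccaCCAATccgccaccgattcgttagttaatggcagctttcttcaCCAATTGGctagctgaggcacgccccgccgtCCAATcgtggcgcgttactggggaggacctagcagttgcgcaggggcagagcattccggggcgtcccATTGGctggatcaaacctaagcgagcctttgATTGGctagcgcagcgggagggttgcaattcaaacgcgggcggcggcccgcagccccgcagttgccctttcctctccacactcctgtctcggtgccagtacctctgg
CCAAT was present in 22 of the 27 tested mitosis genes with a promoter (81.5%), against 43.3% of all tested genes with one.

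DNA replication genes, which are used in S phase by any dividing cell, were divided. Of 29 tested, 4 rose and 7 fell (median -0.32), against 25.1% and 13.3% of all genes, and 50 were listed. The ligase Lig1 rose most (9.57 to 10.42, median 9.91, against 6.69 to 7.71, median 7.66, difference 2.52 ± 0.22, adjusted p = 1.19e-06), followed by Uhrf1 (2.39) and the ribonucleotide reductase subunit Rrm2 (2.09 ± 0.21, adjusted p = 3.35e-06). The catalytic polymerase subunit Pold1 fell most (-0.18 to 0.47, median 0.33, against 1.72 to 2.15, median 1.80, difference -1.62 ± 0.16, adjusted p = 2.79e-06). The helicase subunits Mcm2 (0.68 ± 0.18, adjusted p = 0.00604) and Mcm5 (-0.32 ± 0.14, adjusted p = 0.0669) and thymidine kinase Tk1 (0.24 ± 0.25, adjusted p = 0.434) were not called, and neither was the sliding clamp Pcna in the fit without the fold filter (-0.32 ± 0.13, adjusted p = 0.0483). The E2F motif TTTCCCGC was present in 4 of 25 tested replication genes with a promoter (16%) and TTTGGCGC in 6 of 25 (24%), against 1.81% and 0.904% of all tested genes with one.

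Among the E2F and pocket protein genes 5 of 8 rose and 2 fell, against 25.1% and 13.3% of all genes. E2f8, a repressor, rose (0.93 ± 0.20, adjusted p = 0.00116, spike-in scale -1.09), E2f1 was not called (0.39 ± 0.15, adjusted p = 0.0378), and E2f5 was called lower (adjusted p = 0.000291) with overlapping groups and with no irradiated array well above background for it, so that no fold is given, and with normexp it was at 0.96. Rb1, the retinoblastoma gene, rose (2.36). In the fit without the fold filter E2f3 (-0.80 ± 0.21, adjusted p = 0.00473) and E2f4 (0.14 ± 0.21, adjusted p = 0.609) were not called. The study reports E2f1, E2f3 and E2f4 as lower in this comparison. Here the differences of E2f1 and E2f4 were positive and only that of E2f3 was negative. On the spike-in scale the difference of E2f1 was -1.64.

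The p53 pathway, which dominates the first hours after irradiation, gave 4 higher and 3 lower genes of 19 tested, against 25.1% and 13.3% of all genes, with a median of -0.0021. Cdkn1a, the p21 inhibitor of the cell cycle, was at -1.70 to -0.69 (median -1.46) against -3.25 to -1.73 (median -2.92), a difference of 1.45 ± 0.28 (adjusted p = 0.000552), and its difference on the spike-in scale was -0.58. Ptp4a3 rose most (2.000 ± 0.22, adjusted p = 6.19e-06, spike-in scale -0.026) and Ddb2, a sensor of nucleotide excision repair, fell most (-1.77 to -1.29, median -1.55, against -0.65 to -0.06, median -0.27, difference -1.21 ± 0.16, adjusted p = 2.79e-05). The apoptosis genes Bax (0.38 ± 0.17, adjusted p = 0.0666) and Bbc3 (0.091 ± 0.19, adjusted p = 0.698), Ccng1 (0.26 ± 0.18, adjusted p = 0.235) and Phlda3 (0.52 ± 0.17, adjusted p = 0.019) were not called. Mdm2, the feedback inhibitor of p53, passed only without the fold filter and was higher there (0.80 ± 0.17, adjusted p = 0.00126), and Eda2r did not pass the detection filter.

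Most of the repair genes called were lower. In mismatch, base and nucleotide excision repair, 16 of 43 listed genes passed both filters. Of these 6 fell and 3 rose, against 13.3% and 25.1% of all genes. Without the fold filter, which removes genes that vary little, 40 were tested, 19 fell and 3 rose, against 17.8% lower and 18.5% higher over all genes in that fit. There the mismatch repair gene Msh6 (-0.90 ± 0.15, adjusted p = 0.000215) was lower, and the base excision genes Ogg1 (-0.497 ± 0.16, adjusted p = 0.0146), Apex1 (-0.54 ± 0.16, adjusted p = 0.0114) and Xrcc1 (-0.38 ± 0.13, adjusted p = 0.0222) were not called. The glycosylase Neil1 fell most (-0.72 to -0.092, median -0.23, against 0.72 to 2.32, median 1.52, difference -1.85 ± 0.26, adjusted p = 4.56e-05), and the strand break sensor Parp1 fell (-1.09 ± 0.21, adjusted p = 0.000619). Of 14 double-strand break repair genes tested 3 fell, against 13.3% of all genes. Prkdc, the catalytic subunit of DNA-PK, was not well above background on any irradiated array and was at least 1.79-fold lower (adjusted p = 3.46e-05), but 0.68 with normexp. The end-binding subunit Xrcc5 fell (-0.96 ± 0.19, adjusted p = 0.000637), and Xrcc6 (-0.41 ± 0.20, adjusted p = 0.101) and Xrcc4 (-1.89 ± 0.56, adjusted p = 0.0108) were not called. The damage kinase Atm, on no irradiated array well above background, was not called (adjusted p = 0.00361), and its control level was at least 1.53-fold above the irradiated bound.

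Among myeloid genes the neutrophil granule proteins rose at 3 of 11 tested and mature neutrophil genes at 6 of 18, with none lower (medians 0.88 and 0.83), against 25.1% called higher over all genes, but on the spike-in scale none was higher and 3 and 6 were lower, against 53.5% of all genes. Lactoferrin, Ltf, was at -1.41 to -0.062 (median -1.11) against -4.72 to -2.17 (median -3.68), a difference of 2.84 ± 0.42 (adjusted p = 6.75e-05), well above background on 4 of 6 control arrays. The cathelicidin Camp (1.32 to 2.30, median 1.81, against -1.499 to 0.37, median -0.47, difference 2.30 ± 0.29, adjusted p = 1.78e-05) and lipocalin Lcn2 (1.73 ± 0.26, adjusted p = 8.59e-05) rose, both without overlap, and Mmp8 (0.88 ± 0.32, adjusted p = 0.0317) and the elastase Elane (1.34 ± 0.84, adjusted p = 0.187) were not called. The chemokine receptor Cxcr2 (1.92 ± 0.45, adjusted p = 0.00225) and the calgranulin S100a9 (1.39 ± 0.24, adjusted p = 0.000274) rose, S100a8 (1.28 ± 0.33, adjusted p = 0.00494) and, without the fold filter, Csf3r (0.73 ± 0.25, adjusted p = 0.0229) were not called, and after quantile normalization S100a9 was at -0.069. The spike-in differences were -0.11 for Cxcr2, -0.63 for S100a9 and -0.30 for Lcn2, and with normexp S100a9 was at -0.084. Mpo did not pass the detection filter.

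Monocyte genes were called higher at 4 of 21 tested, below the 25.1% of all genes, and lower at 12 on the spike-in scale, close to the 53.5% of all genes there. Lst1 was at 9.70 to 10.53 (median 9.92) against 6.10 to 8.30 (median 7.79), a difference of 2.47 ± 0.34 (adjusted p = 3.62e-05), but a second, dimmer Lst1 probe that was well above background on all 12 arrays differed by 0.38 ± 0.19. Csf1r, the receptor on which monocytes depend, was at 5.77 to 6.72 (median 6.33) against 4.91 to 5.86 (median 5.21), a difference of 0.97 ± 0.21 (adjusted p = 0.00146), with overlap of the groups for Csf1r and, for the same gene, -1.05 on the spike-in scale and -0.45 with normexp. Ccr2 (0.37 ± 0.27, adjusted p = 0.251), Cx3cr1 (0.051 ± 0.20, adjusted p = 0.846) and Nr4a1 (0.72 ± 0.18, adjusted p = 0.0043), which mark monocyte subsets, were not called. Of 27 platelet genes Pf4, a platelet chemokine, rose (1.12 ± 0.25, adjusted p = 0.00181), though its difference was -0.32 after quantile normalization, -0.38 with normexp and -0.90 on the spike-in scale. Ppbp (0.67 ± 0.35, adjusted p = 0.117), Itga2b (0.65 ± 0.31, adjusted p = 0.0911), Gp9 (0.54 ± 0.31, adjusted p = 0.145) and Tubb1 (0.44 ± 0.41, adjusted p = 0.376) were not called.

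Interferon-stimulated genes rose at 7 of 31 tested and none fell, no larger a share than the 25.1% called higher over all genes, and the median of 0.012 was below that of all genes. With spike-in scaling none was higher and 22 were lower, against 53.5% of all genes lower. After quantile normalization 6 were higher and 2 lower, against 19.2% and 15.5% of all genes. Isg15, a ubiquitin-like modifier, was at 8.90 to 10.07 (median 9.65) against 5.65 to 7.52 (median 6.90), a difference of 2.74 ± 0.31 (adjusted p = 9e-06). The antiviral genes Ifit1 (1.42 ± 0.27, adjusted p = 0.000566) and Oas3 (2.42) and the regulator Irf7 (1.22 ± 0.25, adjusted p = 0.000817) rose, with -0.61 for Ifit1 and -0.81 for Irf7 on the spike-in scale and -0.011 for Irf7 with normexp, while Mx1 (-0.62), Ifit3 (-0.73), Usp18 (0.32) and Cxcl10 (-1.03) were not called.

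Genes of general cell functions showed how far direction followed the scale. Cytosolic ribosomal protein genes were higher at 37 of 59 and lower at 1 on the scale of detected probes (median 1.01), but higher at 0 and lower at 18 after quantile normalization and at 0 and 26 on the spike-in scale. The shares of all genes lower on these scales were 13.3%, 15.5% and 53.5%. Rplp0 was at 10.74 to 11.82 (median 11.60) against 8.73 to 9.49 (median 9.09), a difference of 2.38 ± 0.20 (adjusted p = 1.15e-06) and Rpl14 at 6.29 to 6.91 (median 6.52) against 7.34 to 7.83 (median 7.70), a difference of -1.09 ± 0.16 (adjusted p = 5.34e-05), while Rps19 (0.77 ± 0.29, adjusted p = 0.0351) and Rpl5 (-0.495 ± 0.19, adjusted p = 0.0354) were not called. Many of these genes have processed pseudogenes that can share a probe. Oxidative phosphorylation genes were higher at 8 and lower at 4 of 35, shares close to the 25.1% and 13.3% of all genes, and 4 and 9 after quantile normalization and 0 and 28 on the spike-in scale. Atp5b of the ATP synthase rose most (2.16 ± 0.21, adjusted p = 2.79e-06), Ndufa9 of complex I fell most (-0.85 ± 0.16, adjusted p = 0.000438), Ndufs1 rose (0.93 ± 0.21, adjusted p = 0.00206, but -1.10 on the spike-in scale and -0.34 with normexp), and Cyc1 (-0.30 ± 0.19, adjusted p = 0.182) and, without the fold filter, Sdha (0.10 ± 0.15, adjusted p = 0.585) were not called.

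Of 16 splicing genes tested 2 rose and 4 fell, against 25.1% and 13.3% of all genes. On the spike-in scale none was higher and 12 were lower, where 53.5% of all genes were lower. Sf3b2 rose most (2.03 ± 0.46, adjusted p = 0.00187). The Srsf3 probe used was called lower (adjusted p = 0.000201) but was dim and not well above background on any irradiated array, so that no fold is given for it, and with normexp it was at 0.96. A pair of brighter Srsf3 probes, well above background on all 12 arrays, differed by -0.73 ± 0.18 and -0.40 ± 0.14. Srsf1 (0.58 ± 0.19, adjusted p = 0.0201), Sf3b1 (-0.95 ± 0.23, adjusted p = 0.00273) and U2af1 (-1.09 ± 0.48, adjusted p = 0.0691) were not called, and other detected probes of Srsf1 differed by -0.69 ± 0.15 and 0.25 ± 0.12. Without the fold filter Prpf8 was lower (-0.75 ± 0.16, adjusted p = 0.00109) and Snrpd1 not called (-0.64 ± 0.15, adjusted p = 0.00317). In the proteasome Psmd4 rose (1.52 ± 0.26, adjusted p = 0.000215) and Psmb6 fell (-0.91 ± 0.15, adjusted p = 0.000168) among 11 tested, and Psma1 (-0.43), Psmb5 (-0.33) and Psmc4 (-0.31) were not called without the fold filter. Of the tRNA synthetases Nars rose most (1.80 ± 0.25, adjusted p = 3.71e-05), with 2 of 7 higher and none lower, against 25.1% and 13.3% of all genes. Without the fold filter Lars was lower (-0.80 ± 0.18, adjusted p = 0.00158) and Iars (-0.42) and Wars (-0.52) were not called. A second, dimmer Wars probe gave 0.66 ± 0.17. Scaled to the spike-in probes, 10 proteasome and 5 synthetase genes were lower and none higher, against 53.5% of all genes lower. Psmd4 was at -0.51 there and Nars at -0.23.

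The 10 largest rises that were called higher under all 6 scalings were those of Gm5106, Atf5, Mthfd2, Gm14246, Dppa2, Apol11b, Tmod4, Pi4k2a, Cfap44 and Apol10b. They were taken under the same conditions as the largest falls, among them no overlap between the groups. Gm5106, a predicted gene, was at 2.22 to 8.02 (median 5.59) after neutrons and -2.09 to 0.11 (median -1.58) in the controls, a difference of 6.55 ± 0.87, adjusted p = 2.81e-05. Atf5, a transcription factor of the mitochondrial stress response, was at 6.18 to 7.81 (median 7.29) against 1.34 to 2.51 (median 1.87), or 5.31 ± 0.29, adjusted p = 2.44e-07, a 39.6-fold increase that was 3.28 on the spike-in scale. Mthfd2, a mitochondrial enzyme of folate metabolism, was at 3.71 to 5.00 (median 4.69) against -0.93 to 0.33 (median -0.15), a difference of 4.74 ± 0.30 (adjusted p = 3.93e-07, spike-in scale 2.71). The absence of overlap at these genes followed from that selection. The apolipoprotein L genes Apol11b (7.23 to 7.92, median 7.58, against 2.69 to 3.76, median 3.19, difference 4.38 ± 0.21, adjusted p = 1.41e-07) and Apol10b (3.62 to 4.95, median 4.23, against -0.64 to 1.02, median -0.22, difference 4.27 ± 0.30, adjusted p = 5.12e-07) belong to a family of close relatives that could share probes. Dppa2, known from pluripotent cells, was at 5.29 to 5.96 (median 5.45) against 0.51 to 1.62 (median 1.31), a difference of 4.40 ± 0.23 (adjusted p = 2.38e-07). Tmod4, a tropomodulin, was at 3.82 to 6.44 (median 5.13) against 0.15 to 1.92 (median 0.49), a difference of 4.36 ± 0.42 (adjusted p = 2.35e-06) and the lipid kinase Pi4k2a at 5.65 to 7.93 (median 6.76) against 1.57 to 3.85 (median 2.15), a difference of 4.32 ± 0.45 (adjusted p = 4.35e-06), with a second, dimmer Pi4k2a probe that was detected on all 12 arrays at -0.13 ± 0.12 (SE). Gm14246 differed by 4.51 ± 0.38, adjusted p = 1.04e-06, and Cfap44, well above background on 4 of 6 control arrays, by 4.31 ± 0.42, adjusted p = 2.4e-06.

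The genes that the study names in its own results were chosen by it on samples of this series. Where their direction is that of the study, it is therefore not independent evidence. E2f1, E2f3 and E2f4, which the study reports as lower in this comparison, were not called here, as given above. Of the 23 named genes, 21 were tested, 18 rose and none fell (median 2.66), against 25.1% higher and 13.3% lower over all genes. On the spike-in scale 5 were higher and 3 lower, against 0.829% and 53.5% of all genes. Besides those above, Mta3, a subunit of a chromatin remodelling complex, was at 4.502 to 5.60 (median 5.23) against 1.91 to 2.87 (median 2.70), a difference of 2.54 ± 0.22 (adjusted p = 1.4e-06), with a second probe well above background on all 12 arrays at 2.60 ± 0.27 and another, well above background on 3 irradiated arrays, at -0.064 ± 0.22. The lipid phosphatase Mtmr3 was at 6.28 to 7.42 (median 7.00) against 2.996 to 4.27 (median 4.13), a difference of 3.01 ± 0.26 (adjusted p = 1.21e-06), and the mitochondrial carrier Slc25a51 at 6.42 to 7.69 (median 7.19) against 3.65 to 4.34 (median 4.27), a difference of 2.98 ± 0.25 (adjusted p = 1.03e-06).

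Against the same nominal dose of x-rays at day 7 the neutron mice, whose beam also held gamma rays, differed in B cell and red cell genes. In the direct comparison with 5 x-ray mice, which does not use the controls, 1879 genes were higher (17.3%) and 617 lower (5.69%) after neutrons, 2496 of 10850 (23%), with a median of 0.34. Scaled to the spike-in probes 17 were higher (0.157%) and 1879 lower (17.3%), after quantile normalization 1143 (10.5%) and 775 (7.14%), and with dim spots set to missing 429 (4.22%) and 1490 (14.7%). Leaving out x-ray replicate 3 gave 1533 and scan date as a fixed block 819. Of the B cell genes 18 of 29 were lower and 1 higher, and 22 were lower and none higher on the spike-in scale. Cd79a differed by -1.48 ± 0.24 (SE, adjusted p = 0.000885) and Ms4a1 by -1.78 ± 0.20 (adjusted p = 0.000451). MHC class II genes were lower at 6 of 12, among them H2-Eb1 (-1.03 ± 0.23, adjusted p = 0.00358). Reticulocyte maturation genes were higher at 15 of 27 on the scale of detected probes, 1 after quantile normalization and 0 on the spike-in scale, and red cell membrane genes at 7, 4 and 0 of 22. Alas2 differed by 1.48 ± 0.20 (adjusted p = 0.000651), E2f2 by 1.67 ± 0.28 (adjusted p = 0.000988) and Atf5 by 3.54 ± 0.33 (adjusted p = 0.000333). The neutron arrays were dimmer than those of the x-ray mice, where 52.8 to 58.8% of spots were well above background, and the part of this in the differences was not tested.

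**Figure D5:**
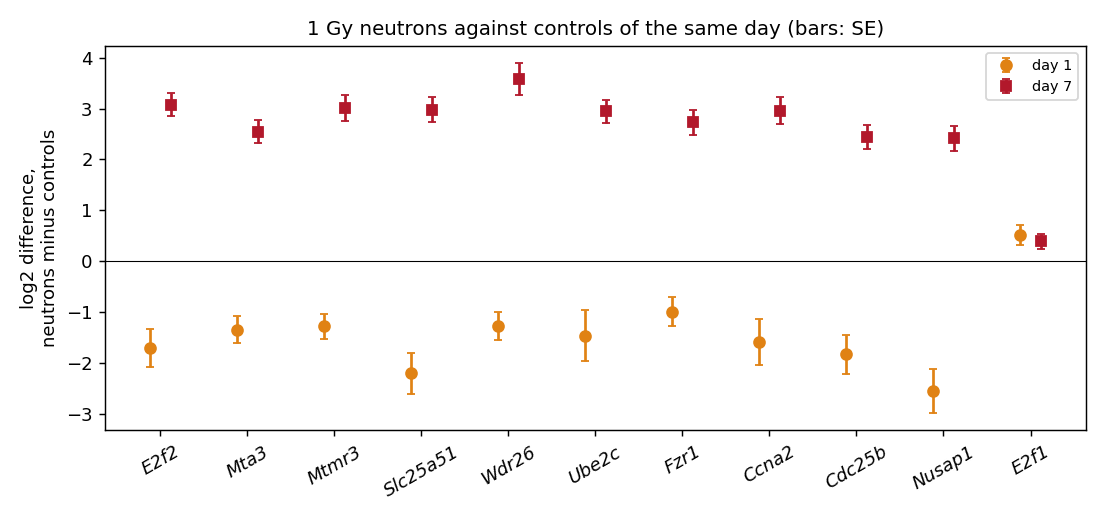
Log2 difference of 1 Gy neutrons from the controls of the same day, with SE, for 11 genes named in the study, at day 1 (circles, 6 irradiated and 5 control mice) and day 7 (squares, 6 and 6). All genes but E2f1 lie below 0 at day 1 and above 0 at day 7.

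The effect of 1 Gy neutrons also changed with time, tested with the same mice of day 7 as above. The neutron arrays of day 1 had 60.8 to 63.0% of spots well above background, against 40.2 to 50.3% at day 7. They were also scanned on other dates, and the part of either in the differences was not tested. The test of the day 7 effect minus the day 1 effect called 3113 of 10850 genes (28.7%), of which 2326 were higher (21.4%) and 787 lower (7.25%) at day 7. Scaled to the spike-in probes 144 were higher (1.33%) and 6198 lower (57.1%), with dim spots set to missing 1532 and 1647, and with normexp 297 and 391. It called higher 17 of 22 red cell membrane genes (median 4.000, and 9 higher and 4 lower on the spike-in scale) and 24 of 27 reticulocyte maturation genes (8 higher and 3 lower on the spike-in scale). Of the B cell genes 3 were called higher and 1 lower of 29, though 19 were lower on the spike-in scale. Interferon-stimulated genes were higher at 3 and lower at 18 of 31, and p53 targets at 2 and 8 of 19.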

How the data were processed

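Blood RNA of 12 mice (6 and 6) was measured on Agilent one-colour mouse arrays with 44397 spots. The x-ray comparison set 5 further arrays of day 7 against the same neutron mice. The comparison of days added 6 neutron and 5 control arrays of day 1 to the 12. Per the labels the deposited intensities come from Feature Extraction 12.0.2 with the authors' default background correction and flags, with no normalization between arrays. The deposited table of processed values and its columns were not used here. From the background-corrected intensity of non-control spots, a log2 value was taken and each array centred on the median of the 19808 probes that passed the detection filter (under 25% of spots flagged). Probes at least 1.5-fold from the median on at least 20% of arrays were kept (12556). Both filters and quantile normalization used all 56 arrays of days 1 and 7, among them dose groups not compared here. The brightest probe per gene was tested (10850 genes) with limma 3.58.1 in R 4.3.3, two-sided. A call needed p below 0.001 together with a false discovery rate (Benjamini-Hochberg) below 0.05. Probes were named through their accession where a RefSeq table held it (28330 of 39429 probes). The others took the name in the array files, with older symbols updated where they matched 1 gene. No gene or exon position was assigned to the probes because the files' build differs from that of the tables used here.

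The rule for named genes took key genes of each list, the largest called rise and fall of each list, and the 10 largest rises and falls called on the same 6 scalings (without normexp or missing dim spots) without overlap of the groups. Some genes that this rule names are not reported here. Members and lists were chosen with earlier results of these data known. In simulated data for this comparison (10850 genes), 44% of genes changed by 1 and 88% of genes changed by 2 on the log2 scale were called, with 7 unchanged genes called. The simulation held no difference in array brightness or scan date between the groups, so it does not measure errors from these or from the scaling. No 2 arrays held the same values. Separate mice are replicates, and the number of arrays limits the precision. Alternatives changed the scaling, background correction, filters, blocks and samples.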

Additional observations from a re-analysis of the deposited data

Results flagged for a closer look

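In 26 of the 343 groups of 6 mice tested over the named genes (7.58%), 1 mouse stood apart from the other 5 by Dixon's test at the 95% level, where chance gives about 1 in 20. Among the irradiated mice these were replicate 1 at Bax (2.35), Cd8a (0.12), Fgb (2.92) and Psmc4 (1.00), replicate 2 at ENSMUST00000103364 (-3.38), replicate 3 at Mki67 (4.44), replicate 4 at Alad (-0.23), Ccng1 (0.14), Gm14246 (-0.17), Gp9 (6.06), Prpf8 (4.42), Rplp0 (10.7) and Tubb1 (1.06) and replicate 6 at Neil1 (-0.72) (log2 level). Among the controls they were replicate 2 at Alad (-0.24), Apol10b (1.02), Gm5106 (0.11), Mdm2 (2.85), Mtmr3 (3.00), Sdha (2.89) and Xrcc5 (-0.88), replicate 5 at Ccr7 (4.72) and replicate 6 at E2f2 (5.49), Isg15 (5.65), Mta3 (1.91) and Myl4 (-0.052) (log2 level).

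The effect of 1 Gy neutrons differed between day 7 and day 1 for 3113 of 10850 genes (limma test of the difference of both effects). As given above, the neutron arrays of day 7 were dimmer than those of day 1. The 10 genes named in the study that passed this test were E2f2 (-1.71 at day 1, 3.07 at day 7, difference 4.79 ± 0.44 SE), Mta3 (-1.35 at day 1, 2.54 at day 7, difference 3.89 ± 0.35 SE), Mtmr3 (-1.28 at day 1, 3.01 at day 7, difference 4.29 ± 0.37 SE), Slc25a51 (-2.20 at day 1, 2.98 at day 7, difference 5.18 ± 0.49 SE), Wdr26 (-1.27 at day 1, 3.58 at day 7, difference 4.85 ± 0.42 SE), Ube2c (-1.46 at day 1, 2.94 at day 7, difference 4.40 ± 0.56 SE), Fzr1 (-0.99 at day 1, 2.73 at day 7, difference 3.72 ± 0.38 SE), Ccna2 (-1.59 at day 1, 2.95 at day 7, difference 4.55 ± 0.54 SE), Cdc25b (-1.83 at day 1, 2.45 at day 7, difference 4.28 ± 0.46 SE) and Nusap1 (-2.55 at day 1, 2.41 at day 7, difference 4.96 ± 0.51 SE). Each adjusted p of the difference was at most 1.42e-06. Ube2c, Fzr1 and Ccna2 were not called at day 1 alone. For E2f1 the difference was -0.12 ± 0.23 and was not called. The study chose these genes on samples of this series.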

How the results depend on the processing

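Of the 10850 genes tested, 4162 were called between the irradiated mice and the controls. The count was 1246 with normexp background correction, 10821 with no detection filter (of 26247 genes) and 1593 with scan date as a fixed block, and lay between 3399 and 5890 with the other settings that used all 12 mice except for the replicate block, and between 3644 and 4329 with a mouse left out. For the x-ray comparison (2496 called) it was 9551 with no detection filter, 819 with scan date as a fixed block and 1533 (without x-ray replicate 3) to 2954 (without irradiated replicate 4) with a mouse left out. For the change between the days (3113 called) it was 6342 with spike-in centring, 688 with normexp, 9044 with no detection filter and 2690 to 3579 with a mouse left out. Replicate numbers did not pair the samples, since the deviations of mice with the same number correlated at -0.42 to 0.07 and none correlated best with its own number. A replicate block gave 2903 calls, and 752 against x-rays. The median over all genes moved by -0.35 with all-probe centring, -2.03 with spike-in centring, -0.18 with quantile normalization, 0.15 with normexp and -0.25 with dim spots set to missing. With only the 7709 genes well above background on all 12 arrays, a setting chosen after seeing the data, 3410 were called, 2532 higher and 878 lower. Of the named genes whose sign did not turn, 46 lost significance with normexp, 44 with the fixed scan date, 34 with spike-in centring and 15 with the replicate block. Genes whose sign turned are given below and not counted here. Some of them, such as Ptp4a3 on the spike-in scale, lost their call as well. Genes that are not well above background on any irradiated array (691) have only a bound there. Of these, 237 were both well above background on every control array and called lower.

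With a setting changed, the sign of these log2 differences turned, and the cause was not tested. All-probe centring did so for Bbc3 (-0.26), Ccng1 (-0.091), Cx3cr1 (-0.30), Ncr1 (-0.30), Nkg7 (-0.055), Prf1 (-0.19) and Tk1 (-0.11). Dim spots set to missing did so for Bax (-0.16), Bbc3 (-0.45), Ccng1 (-0.28), Ccr2 (-0.16), Cd3e (-0.052), Cx3cr1 (-0.49), E2f1 (-0.15), Gata2 (-0.12), Ncr1 (-0.49), Nkg7 (-0.24), Phlda3 (-0.015), Prf1 (-0.38), Tk1 (-0.30) and Tubb1 (-0.095). Quantile normalization did so for Alas2 (-0.048), Cx3cr1 (-0.24), Gp9 (-0.27), Nkg7 (-0.34), Pf4 (-0.32), Ppbp (-0.41), Prf1 (-0.0044), Rps19 (-0.0059) and S100a9 (-0.069). Normexp did so for Atm (0.75), Bax (-0.64), Bbc3 (-0.61), Ccr2 (-0.42), Cd3e (-0.73), Cd4 (-0.56), Csf1r (-0.45), Cx3cr1 (-1.06), E2f5 (0.96), ENSMUST00000103377 (0.19), Elane (-0.13), Gp9 (-0.86), Irf7 (-0.011), Itga2b (-0.42), Ndufs1 (-0.34), Nkg7 (-1.07), Nr4a1 (-0.47), Pf4 (-0.38), Phlda3 (-0.28), Ppbp (-0.83), Prf1 (-0.72), Prkdc (0.68), Rfxank (-0.15), Rps19 (-0.70), S100a8 (-0.20), S100a9 (-0.084), Sf3b1 (0.32), Slc40a1 (-0.029), Srsf3 (0.96), Stac2 (0.42), Tubb1 (-0.37) and U2af1 (0.90). Spike-in centring, which shifts the differences down, did so for Alad (-0.53), Bax (-1.65), Bbc3 (-1.94), Ccng1 (-1.77), Ccr2 (-1.65), Cd3e (-1.54), Cd4 (-1.13), Cdkn1a (-0.58), Csf1r (-1.05), Cx3cr1 (-1.98), Cxcr2 (-0.11), E2f1 (-1.64), E2f8 (-1.09), Elane (-0.68), Epor (-1.06), Fgb (-0.86), Gata1 (-0.18), Gata2 (-1.61), Gp9 (-1.48), Ifit1 (-0.61), Irf7 (-0.81), Itga2b (-1.37), Lcn2 (-0.30), Mcm2 (-1.35), Mmp8 (-1.15), Nars (-0.23), Ncr1 (-1.98), Ndufs1 (-1.10), Nkg7 (-1.73), Nppa (-0.085), Nr4a1 (-1.36), Pf4 (-0.90), Phlda3 (-1.51), Ppbp (-1.36), Prf1 (-1.87), Psmd4 (-0.51), Ptp4a3 (-0.026), Rfxank (-1.24), Rps19 (-1.26), S100a8 (-0.75), S100a9 (-0.63), Slc40a1 (-1.10), Srsf1 (-1.44), Tk1 (-1.79) and Tubb1 (-1.59). Scan date as a fixed block did so for Bax (-0.10), Bbc3 (-0.14), Ccr2 (-0.32), Cx3cr1 (-0.22) and Ncr1 (-0.011), and as a random block for Cx3cr1 (-0.0016). With a mouse left out, the log2 difference of Bbc3 lay between -0.027 and 0.17, the log2 difference of Cx3cr1 between -0.071 and 0.14 and the log2 difference of Ncr1 between -0.047 and 0.16.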
